A study of Mus musculus with 48 samples.

Results

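The binding of the R339Q mutant of CTCF was set against that of the wild-type (WT) transgene in mouse embryonic stem cells, from 4 of the 48 samples of the series. The R339Q group and the WT group each had 2 replicates of FLAG ChIPmentation, a form of ChIP in which a transposase tags the bound chromatin, and each group had 1 deposited peak list that pools both replicates. All these E14Tg2a cells carried an auxin degron on endogenous CTCF and a doxycycline-inducible Ctcf transgene with a FLAG tag. R339Q cells expressed CTCF with the arginine of that name changed to glutamine and WT cells the unchanged protein, and both were treated for 2 days with 500 µM IAA, the auxin that triggers removal of degron-tagged protein, and 1 µg/ml doxycycline. How much endogenous CTCF was left in either group was not measured in these files. Lines with the same interval were merged into 1 peak with their highest deposited value, which left 18808 R339Q peaks and 15392 WT peaks, of 188715 in the 10 FLAG lists of the series. A WT peak that shared at least 1 bp with an R339Q peak was called kept, and otherwise lost. By this rule 8176 WT peaks were kept (53.1%, the background for counts of kept peaks below unless another is given) and 7216 were lost (46.9%). Of the R339Q peaks, 10793 (57.4%) overlapped no WT peak and are called R339Q-only. Lists from an antibody to CTCF itself, in WT cells with and without the treatment (called the treated and untreated CTCF antibody lists), and from an antibody to SMC3, a core subunit of cohesin, in treated R339Q and WT cells, served for comparison. With 1 pooled list per group no spread between replicates could be computed, so no difference between genotypes has a p-value. Ranges in parentheses after a share are 95% Wilson intervals, which hold the counting error of peaks and no other error.

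CTCF binds DNA through a row of zinc fingers, and its central fingers read a shared core motif. Bound CTCF stops cohesin, the ring complex that extrudes DNA loops, and so sets loop and domain boundaries, including those at the protocadherin and Hox clusters. The arginine changed in R339Q lies in the third zinc finger, within the helix that faces DNA, and R342C changes another arginine of the same finger.

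The sequences below show the bases around the core motif at promoters, because kept and lost sites differed in the base that follows the motif. The core was searched as CC, any 3 bases, AG, any 2 bases and GGC on both strands of 32851 RefSeq promoter windows (GRCm38.p6, 250 bases before to 50 after each transcription start), of which 8.61% held it. Capitals mark the 12 bases of the match and the base after it, base 13. Each sequence is read 5′ to 3′ on the strand of the motif. The strongest kept WT peaks with a match lay at Gm41414 (chr16:5306764-5306797, plus strand), Trappc5 (chr8:3676367-3676400, minus strand) and Gm15418 (chr8:11187685-11187718, minus strand), and had guanine at base 13.
Gm41414, kept: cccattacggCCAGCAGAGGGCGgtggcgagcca
Trappc5, kept: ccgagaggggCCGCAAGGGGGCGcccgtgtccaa
Gm15418, kept: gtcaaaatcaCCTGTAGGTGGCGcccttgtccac
The strongest kept WT peaks with adenine at base 13, a set added after the values were seen, lay at Gm17382 (chr17:26886287-26886320, minus strand), Gm34571 (chr2:158258990-158259023, minus strand) and Gm36358 (chr1:65112191-65112224, plus strand).
Gm17382, kept: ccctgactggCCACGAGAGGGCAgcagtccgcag
Gm34571, kept: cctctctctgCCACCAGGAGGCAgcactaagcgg
Gm36358, kept: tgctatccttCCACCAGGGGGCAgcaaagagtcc
The strongest lost WT peaks with a match lay at Hbq1a (chr11:32300027-32300060, minus strand), Rffl (chr11:82871333-82871366, minus strand) and Ints1 (chr5:139775771-139775804, minus strand), and all had guanine at base 13.
Hbq1a, lost: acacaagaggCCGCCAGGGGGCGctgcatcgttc
Rffl, lost: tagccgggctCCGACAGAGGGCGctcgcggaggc
Ints1, lost: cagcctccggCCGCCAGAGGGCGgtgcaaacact
The strongest R339Q-only peaks with a match lay at Gm38293 (chr1:180768635-180768668, plus strand) and Scn2a (chr2:65668574-65668607, minus strand), and had thymine at base 13.
Gm38293, R339Q-only: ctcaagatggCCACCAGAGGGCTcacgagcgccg
Scn2a, R339Q-only: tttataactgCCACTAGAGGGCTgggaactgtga

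The WT peak at Hbq1a, a globin gene, had a deposited value of 8.43 (rank 618 of the WT list) and was present in 7 of the other 8 mutant lists. The WT peak at Rffl, which encodes a ubiquitin ligase, had a value of 7.66 and was present in all 8. The WT peak at Ints1, a subunit of the Integrator complex, had a value of 7.31 and was present in 7. All 3 overlapped a treated CTCF antibody peak and an SMC3 peak in R339Q cells as well as in WT cells. The R339Q-only peak at Scn2a, a neuronal sodium channel gene, had a value of 5.56 in the R339Q list, overlapped an SMC3 peak in R339Q cells and none in WT cells, and was present in 3 other mutant lists. A motif match is a description of the letters and does not show where the protein sat.

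At promoters, by the 1 bp rule, R339Q kept nearly all WT sites with adenine at base 13 and fewer of those with guanine; under a reciprocal overlap of 50% this difference was not seen. The 302 matches lay in 280 WT peaks, and 206 of them (68.2%) were in kept peaks. Over all 639 WT peaks on promoter windows, with or without a match, 60.4% were kept, which is the nearer background for these shares. With adenine at base 13, 51 of 56 matches were kept in R339Q (91.1%, 80.7 to 96.1), and with guanine 143 of 232 (61.6%, 55.2 to 67.7). The difference was 29.4 percentage points (17.5 to 37.6). All 7 matches with thymine were kept, and 5 of 7 with cytosine. Seen the other way, base 13 was adenine in 24.8% of kept matches and in 5.21% of lost ones, and guanine in 69.4% of kept matches and in 92.7% of lost ones. At the free bases inside the match the make-up of kept and lost sites was closer: base 8, for example, was guanine in 67.5% of kept matches and in 55.2% of lost ones. The difference at base 13 depended on the overlap rule, as described with the peak widths below. The flanking bases were looked at only after the values were seen.

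The contrast between adenine and guanine had the same direction in each quartile of WT strength. In the strongest quartile 21 of 21 adenine matches and 78 of 91 guanine matches were kept. In the next quartile these were 12 of 14 with adenine and 40 of 71 with guanine. In the third quartile they were 8 of 9 with adenine and 14 of 38 with guanine, and in the weakest quartile 10 of 12 with adenine and 11 of 32 with guanine. R342C kept 87.5% of the same adenine matches and 80.2% of the guanine matches, 7.33 points apart. Over all WT peaks the kept share was 72.2% in R342C, 86.2% in S354F, 52.1% in K365T, 89.6% in R377C, 71.8% in R377H, 59.2% in Q418R, 75.2% in R448Q and 10.5% in H455R. At the motif matches the other 7 mutants ran from 1.29 points in S354F to −24.6 points in K365T, which kept 48.2% with adenine and 72.8% with guanine. The plot of kept share by base 13 shows R339Q as the list with the widest gap in favour of adenine; whether mutants differ in this gap was not tested.

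**Figure D1:**
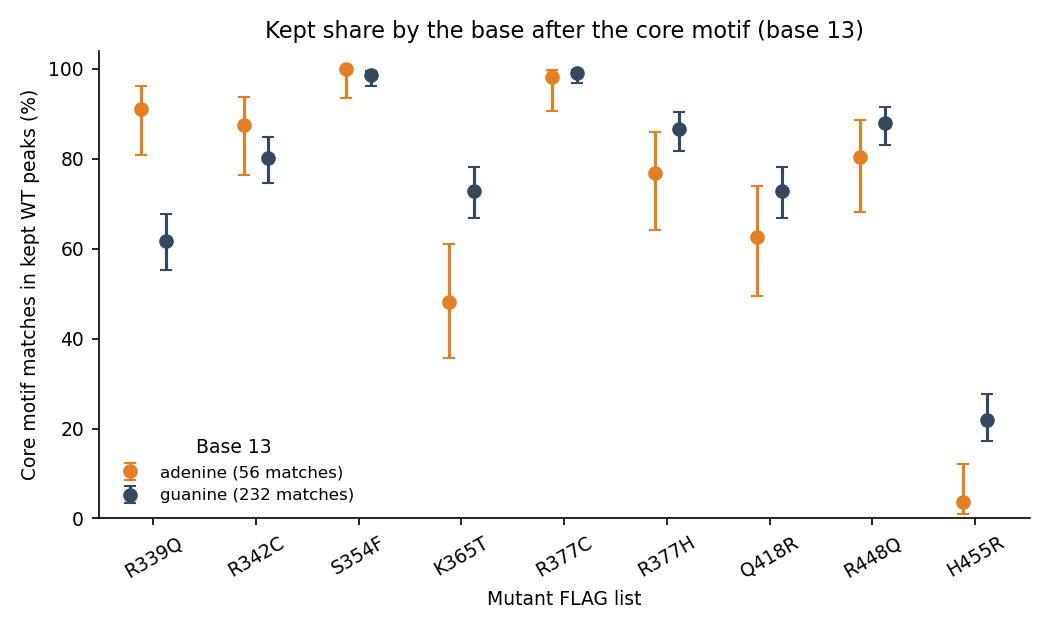
Share of core motif matches in promoter windows whose WT FLAG peak was kept, for each mutant FLAG list, by the base after the motif; points are shares of 56 adenine and 232 guanine matches and bars are 95% Wilson intervals. In R339Q adenine sites (91.1%) lie above guanine sites (61.6%), and in K365T they lie below; under a reciprocal overlap of 50% the difference in R339Q is −4.62 points (−16.6 to 9.51).

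Among the R339Q-only peaks 85 held 95 matches, with thymine at base 13 in 27.4% (19.4 to 37.1), cytosine in 16.8%, adenine in 14.7% and guanine in 41.1%. Over all WT peaks thymine stood at base 13 in 2.32% of matches and guanine in 76.8%. These base shares were also set on sites that neither FLAG list chose, the strongest quartile of the peaks that a CTCF antibody gave in treated WT cells. Those cells express the WT transgene, so these sites were not chosen independently of WT binding. Of the 50 matches with thymine there, 36 had an R339Q peak (72.0%, 58.3 to 82.5), 21 had an R342C peak and 20 had a WT peak. S354F, with 39 of 50, and R377C, with 35, had peaks there too. Of the 374 with guanine, 188 had an R339Q peak (50.3%, 45.2 to 55.3) and 268 a WT peak (71.7%). Of the 129 with adenine, 77 had an R339Q peak (59.7%, 51.1 to 67.8) and 80 a WT peak (62.0%), which differ by less than the counting error. Of the 53 with cytosine, 19 had an R339Q peak and 15 a WT peak. Over the treated antibody peaks of every strength, an R339Q peak lay at 82 of 216 adenine matches (31.8 to 44.6%) and 201 of 512 guanine matches (35.1 to 43.6%), so R339Q showed no higher share at adenine there, while a WT peak lay at 37.0% of the adenine matches and 52.3% of the guanine matches.

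Base 13 was not the only position at which kept shares differed. Over 27 positions with at least 20 matches for 2 or more bases, the widest gap was at 4 bases before the match, where R339Q kept 93.2% of 44 sites with adenine and 61.2% of 49 with thymine. R342C kept 93.2% and 69.4% of the same sites. Among guanine sites at base 13, R339Q kept 28 of 31 with adenine at that upstream base and 115 of 201 without it. At base 5 of the match R339Q kept 84.0% of 25 sites with adenine and 55.0% of 40 with guanine, and R342C kept 96.0% and 67.5%.

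Stronger WT peaks were kept more often, but R339Q also lost strong ones. The deposited value, a score of the authors' peak caller whose scale may differ between lists, had a median of 4.25 in kept WT peaks and 3.19 in lost ones. From the weakest to the strongest decile of WT peaks the kept share in R339Q was 30.7, 35.4, 37.6, 43.7, 47.6, 52.8, 62.1, 67.3, 70.6 and 83.4%. In the strongest decile R342C kept 99.6%, K365T 94.0% and Q418R 90.1%. Of the 1000 strongest WT peaks R339Q kept 861, R342C 997, K365T 963 and Q418R 926. H455R kept fewer than R339Q, with 245 of these 1000 and 22.3% of the strongest decile. K365T kept about as many WT peaks in all (52.1%) as R339Q, and the plot of kept share by strength shows the 2 lines crossing. Among WT peaks at a treated CTCF antibody peak, the kept share was 46.9% in the weakest decile and 83.4% in the strongest. In deciles 2 to 5 it was 43.8, 44.3, 47.7 and 49.9%, so among these sites the rise lay mostly in the upper deciles.

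**Figure D2:**
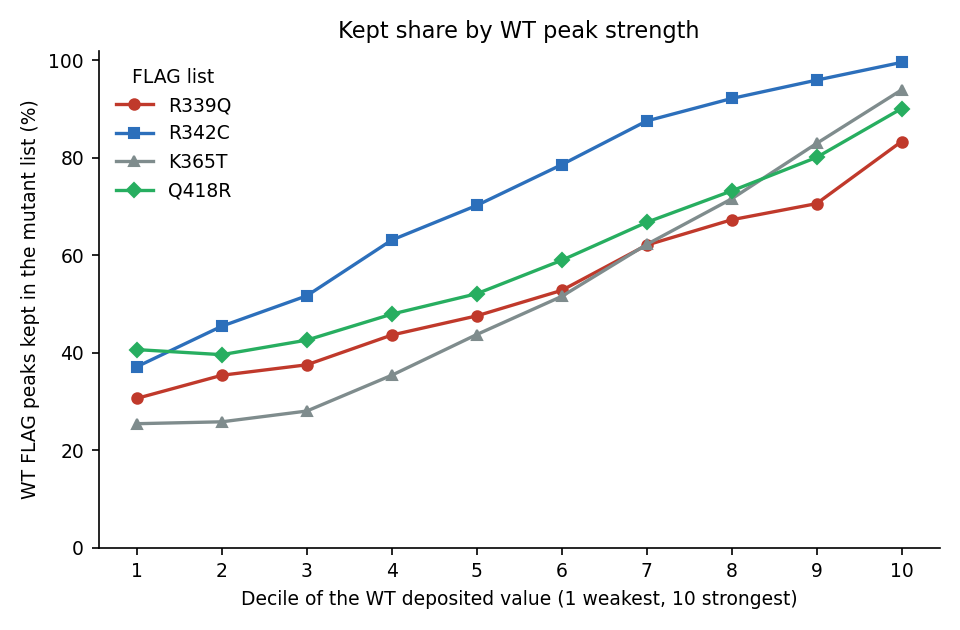
Share of WT FLAG peaks kept in 4 mutant FLAG lists by decile of the WT deposited value, weakest at the left. R339Q kept 30.7% in the weakest decile and 83.4% in the strongest, where R342C kept 99.6%.

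The strongest kept sites lay near genes of many functions. The strongest WT peak, within Cyria (chr12:12322808-12324023), a gene for a Rac1-binding protein, lay under the strongest R339Q peak, with a value of 25.4 in the R339Q list and 22.7 in the WT list. Scores of the 2 lists are given side by side and their sizes are not compared. Near Id2, which encodes an inhibitor of helix-loop-helix factors, the R339Q peak had a value of 10.3 and the WT peak 19.6. At Ephb1, an ephrin receptor gene, the R339Q peak had a value of 8.01 and the WT peak 16.9. Further kept sites of the 8 strongest, nearest to Setd4, Cemip2, Dmrt3 and Ccdc60, had WT values of 18.1 to 18.8. All 8 had peaks in at least 7 of the other mutants and SMC3 peaks in both R339Q cells and WT cells. Over all 8176 kept WT peaks, the value of the R339Q peak and that of the WT peak under it were weakly related across peaks of the 2 lists (Pearson r 0.37, Spearman rho 0.30), where peaks of 1 list share its depth.

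The strongest lost site at a treated CTCF antibody peak lay within Opalin (chr19:41071419-41071974), a myelin protein gene, with a WT value of 12.2 at rank 79 of the WT list. The next lay nearest to Spryd7 and Ccdc171, both with a value of 12.1. The WT site near T, the Brachyury gene of mesoderm formation, had a value of 11.8 (chr17:8463408-8463999) and that nearest to Tmem33, which encodes a membrane protein of the endoplasmic reticulum, 11.7. The site nearest to Arpp21 had a value of 11.9 and was present in all 8 other mutant lists, and Psd3 and Eef2kmt complete the 8. Each of these 8 lost sites had an SMC3 peak in R339Q cells and in WT cells. At the limit of the overlap rule, 46 kept peaks overlapped by less than 50 bp, and 179 lost peaks (2.48%) had an R339Q peak within 500 bp.

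R339Q peaks were wide where they met WT peaks. The shared R339Q peaks, 8015 in number, had a median width of 578 bp against 306 bp for kept WT peaks, and 57.2% of them had 2 or more summits, against 18.7% of kept WT peaks. Over pairs of overlapping peaks the R339Q peak was 1.99 times as wide as the WT peak in the median, and wider in 79.9% of pairs. For R342C the ratio was 0.854 and the mutant peak was wider in 34.1%. An R339Q peak covered 2 or more WT peaks in 180 cases, and an R342C peak in 38. Lost WT peaks were narrower, with a median of 199 bp, and R339Q-only peaks had a median of 207 bp. In the strongest decile of the R339Q list the median width was 1163 bp, 85.2% of peaks had several summits and 94.0% met a WT peak.

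This width bears on the kept share. Under a reciprocal overlap of 50% only 3518 WT peaks (22.9%) were kept, and of the peaks kept by the 1 bp rule 50.0% had an R339Q partner more than 2 times as wide, which cannot pass a reciprocal 50%. At adenine matches the R339Q partner was 3.08 times as wide in the median, and at guanine matches 1.53 times. The reciprocal rule left 16 of 56 adenine matches and 77 of 232 guanine matches kept, so the difference between adenine and guanine was −4.62 points, with an interval that holds 0 (−16.6 to 9.51). When peaks up to 500 bp apart were matched it was 28.2 points.

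Nearly all kept WT peaks and most lost ones lay at sites that the CTCF antibody also marked. A treated CTCF antibody peak overlapped 99.7% of kept WT peaks, 81.3% of lost ones (80.4 to 82.2) and 69.9% of R339Q-only peaks. The antibody peak there was among the strongest quartile of its list at 99.9% of kept and 99.6% of lost peaks with one, and at 79.5% of R339Q-only peaks. Its median value was 109 at kept peaks, 85.5 at lost peaks and 52.0 at R339Q-only peaks. Outside both antibody lists, treated and untreated, lay 1327 lost peaks (18.4%) and 21 kept ones. These lost peaks were weak, with a median value of 2.54 and a median width of 130 bp. The strongest of them lay near Wwox, an oxidoreductase gene, with a WT value of 9.09, and the next near Tns1, Ndufa8 and Rims2, with values of 5.81 to 7.30.

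Cohesin was present in R339Q cells at most kept sites and at fewer lost ones. SMC3 had a peak in R339Q cells at 88.2% of kept WT peaks and in WT cells at 91.3%. At lost WT peaks it had a peak in R339Q cells at 40.2% and in WT cells at 69.8%. Of the lost peaks with SMC3 in WT cells, 55.8% (54.4 to 57.2) still overlapped an SMC3 peak in R339Q cells, against 93.0% (92.4 to 93.6) of the kept peaks. The R339Q SMC3 list was the longer one, with 94978 peaks against 71962 in WT cells. R339Q-only peaks had SMC3 in R339Q cells at 36.4% and in WT cells at 31.3%. Those at a peak of either CTCF antibody list had it at 42.8% in R339Q cells and 33.7% in WT cells. At those off both antibody lists the order was the other way, with 17.8% in R339Q cells and 24.5% in WT cells. The labels tag the SMC3 lists of R339Q and WT with different letters and numbers whose meaning they do not state, and the part of this in the SMC3 shares was not tested.

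**Figure D3:**
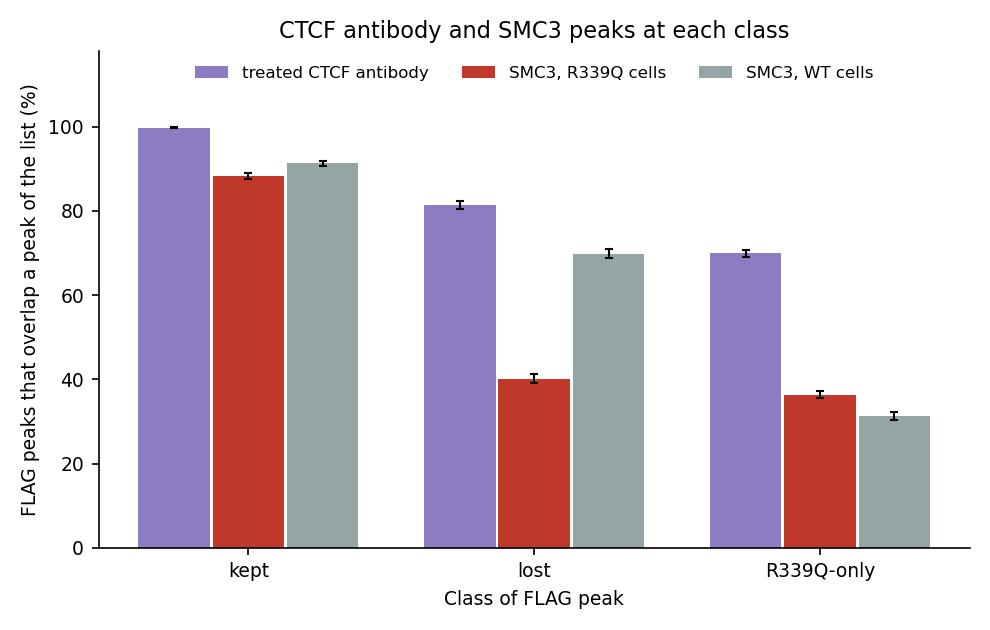
Share of kept WT peaks, lost WT peaks and R339Q-only peaks that overlap a peak of the treated CTCF antibody list, the SMC3 list of R339Q cells or that of WT cells; bars are shares and lines are 95% Wilson intervals over peaks. At lost peaks SMC3 stands at 40.2% in R339Q cells and 69.8% in WT cells.

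R342C, with its change in the same zinc finger, kept 72.2% of WT peaks, and the kept share in R339Q minus that in R342C was −19.1 percentage points (−19.8 to −18.3). It kept 93.7% of the WT peaks that R339Q kept and 47.9% of those that R339Q lost. There were 3453 WT peaks lost in R339Q and kept in R342C, 519 kept in R339Q and lost in R342C, and 3763 lost in both. Over all WT peaks 38.5% were kept in at least 7 of the other 8 mutants, and of the peaks that R339Q kept 56.8%. Among lost peaks the share was lower, with 1280 such peaks (17.7%). The strongest of these 1280 lay at Opalin, Ccdc171, Psd3, Arpp21, T and Tmem33. Their median WT value was 4.50, 98.3% overlapped a treated CTCF antibody peak, and SMC3 was present at 68.4% in R339Q cells and 90.5% in WT cells. Peaks in at least 5 of the other 8 mutants made up 67.2% of all WT peaks and 85.9% of kept ones. In the other direction, 570 kept peaks (6.97% of kept peaks) were lost in at least 5 of the other 8 mutants. The strongest of these lay near Adam6a, Aoah, Lgr6, the muscarinic receptor gene Chrm2, the transcription factor gene Bhlhe23 and Cd55b, had WT values of 5.37 to 5.67, and were 145 to 252 bp wide. All these comparisons share the WT list.

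R339Q-only peaks were mostly weak and mostly at sites that the CTCF antibody also marked. Their median value in the R339Q list was 2.67, against 4.42 for shared R339Q peaks. A CTCF antibody peak of treated or untreated WT cells overlapped 8014 of the 10793 (74.3%). This was a lower share than the 85.1% of all R339Q peaks. The strongest, within Inpp4a, an inositol phosphatase gene (chr1:37328531-37329831), had a value of 15.4 at rank 98 of the R339Q list, 3 summits, and peaks in 6 other mutants. Near Foxk1, a forkhead factor gene, the value was 12.1, and nearest to Eif4g2, a translation initiation factor gene, 11.9. The peaks near Slc16a6, Mtarc2 and Msra were 1985, 1995 and 1996 bp wide, with 6, 6 and 9 summits. Those near Mtarc2, 4932414N04Rik and Rbp2 overlapped SMC3 peaks in R339Q cells and none in WT cells. At neither antibody list lay 2779 R339Q-only peaks (25.7%, against 14.9% of all R339Q peaks), with a median value of 2.51 and a median width of 165 bp. The strongest of these, near Bbs10, Fbxo11, Gpi1 and Prr15, had values of 4.30 to 4.75.

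About as many R339Q-only peaks were seen in no other mutant as were seen in at least 1. Those in none of the other 8 lists numbered 5540 (51.3%), against 29.5% of all R339Q peaks. R377C peaks met 35.4% of R339Q-only peaks, S354F peaks 28.2% and R342C peaks 15.9%, where the lists of R377C and S354F hold 30462 and 24152 peaks. Over all R339Q peaks these shares were 62.5% for R377C, 57.7% for S354F and 49.2% for R342C. At least 7 other mutants shared 0.991% of R339Q-only peaks and 25.0% of all R339Q peaks.

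R339Q-only peaks were unevenly spread over chromosomes. Their share of R339Q peaks was 71.7% on chromosome 17 (844 of 1177, 69.1 to 74.2), against 57.4% over all chromosomes, and 44.2% of those 844 lay at neither CTCF antibody list. On the X chromosome the share was 49.2%, with 7 such peaks off the antibody lists. The excess on chromosome 17 lay between 74 and 90 Mb, a region picked after the values were seen. It held 471 R339Q peaks (2.50% of the list), 299 of them off both antibody lists, against 44 WT peaks, all of them at an antibody peak. Q418R had 685 peaks there and the other 7 mutants 13 to 285. SMC3 had 650 peaks there in R339Q cells and 52 in WT cells, so the density was seen with both antibodies in R339Q cells. Peak lists do not measure how many copies of a region the cells carry, and whether copy number has a part in these counts was not tested. The 299 peaks made up 10.8% of all R339Q-only peaks off the antibody lists, and 22.4% of them met a Q418R peak, against 5.32% elsewhere. Of the 44 WT peaks in the region R339Q kept 38. R339Q-only peaks in the region had a median value of 2.84, against 2.66 elsewhere, and 27.6% of them had SMC3 in R339Q cells, against 36.7% elsewhere.

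**Figure D4:**
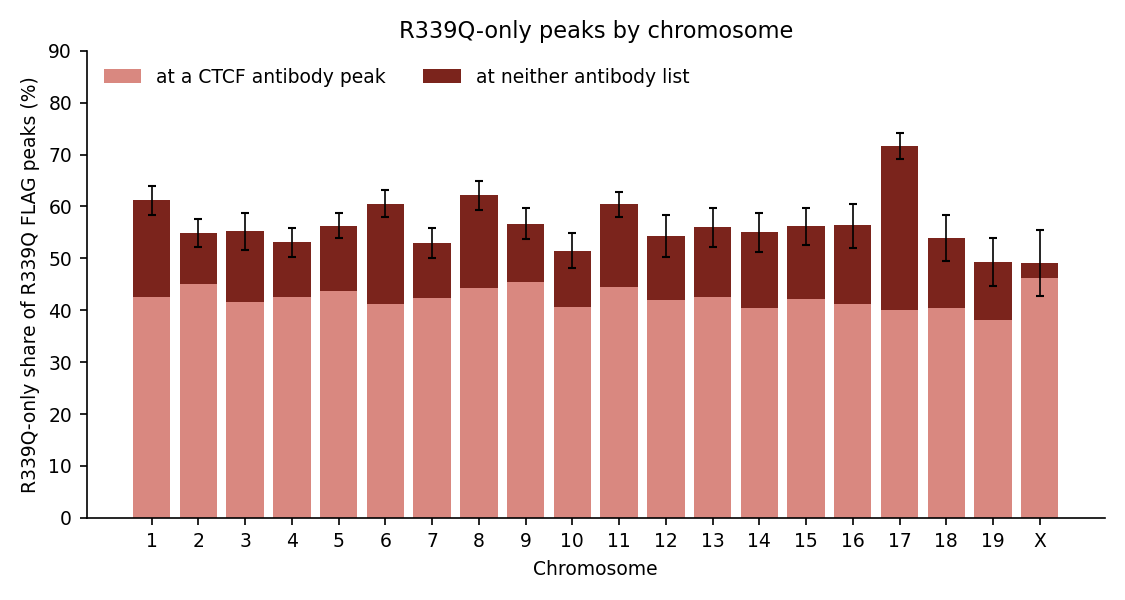
R339Q-only peaks as a share of R339Q FLAG peaks on each chromosome, split by overlap with either CTCF antibody list; lines are 95% Wilson intervals of the whole bar. Chromosome 17 stands at 71.7%, and the part off the antibody lists is larger there than on any other chromosome shown.

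Kept shares also varied between chromosomes, from 40.5% on chromosome 18 (230 of 568, 36.5 to 44.6), 44.2% on chromosome 12 and 47.0% on chromosome 19 to 58.5% on chromosome 2. R342C kept 60.2% on chromosome 18 and 76.8% on chromosome 2. Without the 23 sites of the protocadherin clusters described next, R339Q kept 41.8% on chromosome 18.

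The clustered protocadherins, cell surface proteins whose promoter choice depends on CTCF, were largely lost. Of 23 WT peaks within 10 kb of their genes, R339Q kept 2 and R342C 12, and all 23 overlapped a treated CTCF antibody peak. The kept sites were at Pcdhgb7, with an R339Q value of 3.08 and a WT value of 8.13, and at Pcdhb17, with 2.28 in the R339Q list and 3.54 in the WT list. The strongest lost site, at Pcdhb3, had a WT value of 7.29, was present in all 8 other mutants, and had no SMC3 peak in R339Q cells but had one in WT cells. Of the 21 lost sites, 7 had an SMC3 peak in R339Q cells and 13 in WT cells. The next strongest lost sites, at Pcdhgb6 and Pcdhga11, had WT values of 6.64 and 6.41 and an SMC3 peak in R339Q cells and in WT cells. That at Pcdhb4, with 6.16, had no SMC3 peak in R339Q cells and none in WT cells. The median WT value of the 23 sites was 3.73, close to the 3.66 of all WT peaks. Of the 5 R339Q peaks within 10 kb of these genes 3 were R339Q-only, where 57.4% of all R339Q peaks were.

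At the Hox clusters, which encode the factors that pattern the body axis, R339Q kept 5 of 14 WT peaks and R342C 10. The kept sites were nearest to Hoxa5 (WT value 8.00), Hoxa9 (7.02), Hoxd9 (6.53), Hoxc8 (4.07) and Hoxb8 (3.15). The strongest lost sites were nearest to Hoxc10 (5.33), which all 8 other mutants had, and Hoxa10 (5.21), and every WT site except that by Hoxd11 had SMC3 in R339Q cells. Near 4 neural regulators R339Q kept 1 site, by Nes, and its lost sites included those by Neurog2 and Dlx2, while R342C kept all 4. Near the non-clustered cadherins and delta protocadherins R339Q kept 23 of 48 sites, the strongest at Cdh6 (11.9), and R342C kept 37. The strongest lost site of that list lay near Cdh5, with a WT value of 5.19.

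Other lists were kept as often as WT peaks at large or more often. Near ribosomal protein genes 35 of 48 sites were kept, although their median WT value was only 3.14, and R342C kept 38. The site near Rps16 had an R339Q value of 11.03 and a WT value of 7.20, each in its own list. Near pluripotency genes 9 of 13 were kept, among them sites by Sox2 (8.62), Pou5f1 (1.97), Nanog (3.62), Sall4 (4.67) and Tbx3 (4.90), and lost were sites by Lefty2, Il6st and Dppa5a. Of 3 sites by Esrrb the strongest in WT (5.27) was lost and the other two, with WT values of 2.16 and 2.14, were kept. Near genes of cohesin, its regulators and Ctcf 10 of 14 were kept, with sites by Ctcfl, the germline paralogue of Ctcf, Nipbl, Smc3, Stag1 and Hdac8, and the strongest lost site lay near Pds5b (6.21). Imprinted genes kept 11 of 20, including sites near Meg3 and Cdkn1c and the stronger of those near Airn, and at Usp29 1 strong site was kept (7.70) and another lost (6.998). Mesoderm and endoderm regulators kept 9 of 13, with Hnf4a (9.32) the strongest kept and Cdx2 (6.91) the strongest lost. The kept Hnf4a site and the strongest kept Ctcfl site (6.80) are among the 21 kept peaks at neither CTCF antibody list. No WT peak lay within 10 kb of a gene of the X inactivation centre list, and 2 R339Q-only peaks did. Most of these lists have so few sites that the Wilson interval spans 53.1%; for the clustered protocadherins it was 2.42 to 26.8%, and for ribosomal protein genes 59.0 to 83.4%.

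**Figure D5:**
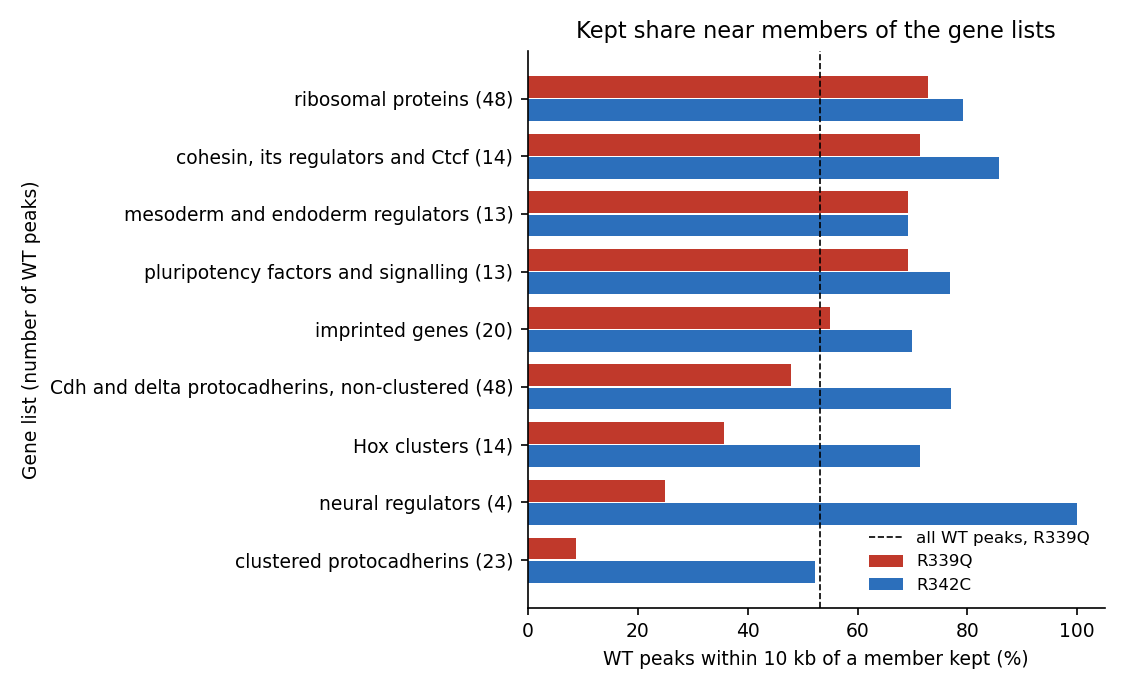
Share of WT FLAG peaks within 10 kb of the members of each gene list that were kept in R339Q and in R342C, with the number of WT peaks in brackets; the dashed line is the 53.1% of all WT peaks kept in R339Q. Clustered protocadherins are lowest for R339Q, with 2 of 23 kept.

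Location in the gene map differed little between kept and lost sites. Within 1 kb of the end of a protein-coding or lncRNA gene span lay 15.7% of kept WT peaks (14.9 to 16.5), 12.8% of lost ones (12.1 to 13.6) and 16.7% of R339Q-only peaks. Among WT peaks at a treated CTCF antibody peak these shares were 15.7% kept and 14.8% lost, whose intervals overlap. Of peaks with a start on their chromosome, 3.52% of kept WT peaks (3.14 to 3.95) and 2.37% of lost ones (2.04 to 2.76) lay over a transcription start. At a treated CTCF antibody peak these were 3.52% (3.14 to 3.95) and 2.83% (2.43 to 3.29). R339Q-only peaks off both antibody lists lay within 1 kb of a transcription start in 15.7% of 2713 cases with a start on their chromosome, and lost WT peaks off both lists in 1.50% of 1199. Gene bodies held 44.8% of kept, 44.2% of lost and 49.6% of R339Q-only peaks. Exons and introns could not be separated with the annotation used.

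Neighbouring WT peaks tended to share their fate in R339Q. Where the upstream neighbour lay within 2 kb and was kept, 72.2% of 590 peaks were kept (68.5 to 75.7), and where it was lost, 44.4% of 374 (39.4 to 49.5). For R342C these shares were 76.1% and 73.3%. At wider gaps both mutants had the higher share after a kept neighbour. From 2 to 10 kb the shares were 63.7% and 53.9% in R339Q and 80.1% and 70.6% in R342C. Between 10 and 50 kb they were 57.0% and 53.7% in R339Q and 77.2% and 71.8% in R342C. From 50 to 200 kb they were 56.9% and 49.2% in R339Q and 75.2% and 64.3% in R342C. At 200 kb or more they were 47.2% and 40.1% in R339Q and 65.9% and 57.7% in R342C. As given above, 180 R339Q peaks each covered several WT peaks, and 38 R342C peaks did; their part in these shares was not tested.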

How the data were processed

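The deposit gave 22 peak lists; 14 were read here (10 FLAG lists, 2 CTCF antibody lists and the SMC3 lists of R339Q and WT cells), and 8 SMC3 lists of other mutants were not used. The submitters' processing notes name Trim Galore, Bowtie2, MACS2, deepTools and mm10, with no version and no setting. By the titles a list pools replicates 1 and 2, but peak names in the FLAG lists carry other replicate numbers, so the titles alone say which libraries were used. The fifth of 5 columns is a deposited score from the authors' peak calling, of a kind that is not stated, so only scores of the same list were compared in size; scores of 2 lists stand side by side, or in 1 correlation over peaks, as a description. Sequencing depth is unknown and limits how many peaks a list holds. The running peak numbers have gaps (1.91% in the R339Q list, 2.71% in the WT list), so peaks may have been removed before deposit.

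Repeated intervals were merged (32288 R339Q lines and 18287 WT lines), and an overlap of 1 bp or more counted as shared. The work used Python 3.11.15, numpy 2.4.6, pandas 2.3.3, scipy 1.17.1 and matplotlib 3.10.9, and overlap and motif search were tested on simulated lists. Gene spans and promoter sequences came from RefSeq GRCm38.p6, the assembly behind mm10. The spans have no strand, and no promoter window on chromosome 18 was used, so peaks there enter neither the motif search nor the distances to a transcription start. Sites chosen by strength and sites of the Hox and clustered protocadherin lists carry the name of the nearest protein-coding gene, sites of other lists the list member within 10 kb, and motif sites the gene of the promoter window. Named are the strongest 8 kept, 8 lost and 8 R339Q-only peaks at CTCF antibody peaks, the strongest 4 lost and 4 R339Q-only peaks off them, the strongest 6 lost in R339Q and kept in at least 7 other mutants, the strongest 6 kept and lost in at least 5 others, and the strongest kept and lost site of each gene list. Some sites that this rule takes are left unreported. Further list members were chosen after their values were seen. The members and all 10 gene lists were chosen with earlier results of these data known. Alternatives were other overlap rules, the upper 50% of each list, equal numbers of peaks, sites with a treated CTCF antibody peak and standardisation over strength.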

Additional observations from a re-analysis of the deposited data

Results flagged for a closer look

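At core motifs in promoter windows the kept share with adenine at base 13 minus that with guanine was 29.4 percentage points in R339Q and −24.6 points in K365T, so the 2 mutants ran in opposite directions over the same 56 adenine and 232 guanine matches. Each mutant has 1 pooled list, and the difference between the mutants was not tested.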

How the results depend on the processing

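Of 44 alternative values for 8 results, 16 stayed within the counting interval of the reported value, 27 moved outside it with the same sign and 1 changed sign. Among the moved values, the gene-end difference had an interval that holds 0 in the upper 50% of each list (−1.55 to 1.68). The same held for WT peaks at a treated antibody peak alone (−0.364 to 2.04). A reciprocal overlap of 50% gave a kept share of 22.9%, an R339Q-only share of 81.3%, a difference in median WT value (kept minus lost) of 1.24, a difference in treated CTCF antibody share of 11.1 points, 81.8% of R339Q-only peaks at a CTCF antibody peak, −37.2 points for R339Q minus R342C, and −4.62 points (−16.6 to 9.51) for adenine minus guanine at base 13. That rule rejects any pair in which 1 peak is over 2 times as wide as the other. Matching peaks up to 500 bp apart gave a kept share of 54.3%, an R339Q-only share of 51.0% and 71.1% of R339Q-only peaks at an antibody peak. The upper 50% of each list gave 54.8% kept, 55.7% R339Q-only, 0.713 for the median value, 1.98 points for the treated antibody share, 0.069 points for the share within 1 kb of a gene end and 92.9% of R339Q-only peaks at an antibody peak. Equal numbers of the strongest peaks gave 49.0% kept, 52.2% R339Q-only, 16.9 points for the antibody share, 1.70 points for the gene-end share and 76.3% of R339Q-only peaks at an antibody peak. WT peaks at a treated antibody peak alone gave 58.1% kept, 0.842 for the median value, 0.847 points for the gene-end share and −20.8 points for R339Q minus R342C. Standardised over deciles of WT value, the treated antibody share differed by 13.7 points. Other alternatives were chosen after seeing the data. Without the 74 to 90 Mb region of chromosome 17 the R339Q-only share was 56.5%, with 76.1% of these peaks at an antibody peak. Adenine minus guanine at base 13 ranged from 28.2 to 32.6 points over its other 6 alternatives, which covered a stricter motif (CC, any 3 bases, AGG, any base and GGC), matching within 500 bp, the upper 50%, equal numbers, peaks with a single match and standardisation over quartiles of WT value. The cause of these shifts was not tested. No paired analysis was possible because each list pools both replicates, and for the same reason no replicate could be left out.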
